A study of Mus musculus with 2 samples.

Results

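The forkhead factor genes of the mouse were examined for open chromatin in ileal enteroids with and without Taf4. Members were the protein-coding genes of the mm9 annotation whose symbol is Fox followed by one letter from A to S and a number, without Foxa1, Foxa2 and Foxa3. The rule gave 39 of 22380 protein-coding genes, on 16 chromosomes. A start site peak of a member lay within 1 kb of one of its annotated start sites, and its other peaks lay in the gene body or within 10 kb of either end. The rule used no measured value. Foxf1a, with a letter after its number, and Foxl1, annotated as a pseudogene, fell outside it.

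Open chromatin was mapped by ATAC-seq, an assay that uses a transposase to cut accessible DNA. The material was enteroids, cultures of gut epithelium grown from ileal crypts. One library came from control Taf4 lox/lox cultures and 1 from Taf4 lox/lox::VilCreERT2 cultures, referred to as Taf4-inactivated. Taf4 is a subunit of TFIID, the general factor that helps to place RNA polymerase II at start sites. Both cultures carried floxed Taf4 alleles, came from mice 4 months of age of the strain labelled C57Bl6/129sv, and were given 1 µM 4-hydroxytamoxifen for 3 days. The Villin promoter drives CreERT2 in epithelial cells and not in other cells of the gut wall. The control carried no Cre, so that loss of Taf4 and activity of the recombinase cannot be told apart. With 1 library per genotype there was no replicate error, no test between genotypes was possible, and every difference below is one between 2 libraries.

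Forkhead factors bind DNA through a winged-helix domain, and many recognise the letters TGTTTAC or close variants of them. The FOXO branch is held in the cytoplasm when PI3K and AKT are active and enters the nucleus when growth factor signals fall. FOXM1 drives genes of mitosis, whereas many FOXB to FOXL factors act in embryonic patterning and are silent in most adult epithelia. In the intestine FOXA factors are epithelial, and FOXF and FOXL1 factors belong mainly to the mesenchyme around it.

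The sequence before the start site was read at members with unlike start site peaks. The 250 bases before the start site, read from the mm9 genome on the strand of the gene, are given for 3 genes, with each CG dinucleotide in capitals. Foxj3 had the most enriched start site peak of the 39, Foxd3 ranked lower in the Taf4-inactivated list, and Foxr1 had no start site peak in either. Foxj3 is at chr4:119212016-119212265 (plus strand), Foxd3 at chr4:99322740-99322989 (plus strand) and Foxr1 at chr9:44248952-44249201 (minus strand).
Foxj3: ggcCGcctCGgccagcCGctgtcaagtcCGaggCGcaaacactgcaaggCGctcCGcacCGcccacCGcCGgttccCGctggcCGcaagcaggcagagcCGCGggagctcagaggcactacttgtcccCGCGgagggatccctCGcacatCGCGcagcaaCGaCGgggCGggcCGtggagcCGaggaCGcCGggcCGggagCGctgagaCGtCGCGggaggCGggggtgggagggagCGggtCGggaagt
Foxd3: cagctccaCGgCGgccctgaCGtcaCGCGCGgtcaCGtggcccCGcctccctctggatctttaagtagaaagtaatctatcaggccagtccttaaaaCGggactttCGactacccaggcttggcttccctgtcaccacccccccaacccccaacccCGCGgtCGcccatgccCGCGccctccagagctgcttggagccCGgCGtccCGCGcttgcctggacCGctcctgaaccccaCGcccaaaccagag
Foxr1: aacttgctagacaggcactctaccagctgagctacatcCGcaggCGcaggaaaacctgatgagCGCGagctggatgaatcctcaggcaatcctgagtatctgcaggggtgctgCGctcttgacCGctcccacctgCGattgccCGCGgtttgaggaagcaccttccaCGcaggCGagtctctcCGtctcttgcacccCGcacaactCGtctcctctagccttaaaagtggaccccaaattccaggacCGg
The Foxj3 sequence held 34 CG, more than 96.0% of the promoters of protein-coding genes, and all of its 250 bases lay in a peak of both lists. The Foxd3 sequence held 21 CG, more than 81.0% of these promoters. Of its bases 116 lay in the control peak but 0 in the Taf4-inactivated peak, which began after the start site. The Foxr1 sequence held 15 CG, more than 67.1% of these promoters, and was covered in neither list. The median promoter held 8 CG, so that all 3 sequences were above it.

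The control list held 90445 peaks and the list of the Taf4-inactivated library, called the inactivated list, 71282. The local read level behind the peak statistics put the depth of the Taf4-inactivated library at 60.5% of the control library. Peaks at a −log10 q of at least 5 numbered 10757 in control and 20474 in the inactivated list, so that the lists differed in strength as well as in length. Each peak carries a fold enrichment over the background of its own library, and folds of the 2 libraries are not on a common scale. Peaks were therefore ranked by fold within their list, and a percentile of 90 means that 90% of the peaks of that list had a lower fold. The start site of Taf4a, the targeted gene, carried a peak at percentile 74.7 in control and 58.7 in the inactivated list, which is no check of the deletion, since the floxed exons were not read. Of 8 epithelial marker genes, 7 had a start site peak in control and 8 in the inactivated list, whereas the defining immune and endothelial genes Ptprc, Cd3e and Cdh5 and the smooth muscle gene Acta2 had none in either. Start site peaks were present at 4 of 5 mesenchymal markers in both lists, at 2 of 5 immune markers in control and 1 in the inactivated list, and at 2 of 3 endothelial markers in control and 1 in the inactivated list. Of 4 neuronal and glial markers, 3 had one in control and 2 in the inactivated list. Fewer cells of a type and less open DNA per cell cannot be told apart in such bulk libraries.

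Most forkhead genes had a start site peak in the lists as deposited. In control, 37 of 39 (94.9%) carried a start site peak, where the share of all protein-coding genes was 68.4%. In the inactivated list 34 of 39 (87.2%) carried one, against 65.5% of all genes. A peak in both lists was found at 33 members (84.6%), against 62.7%. A peak in control alone was found at 4 members (10.3%), against 5.7% of all genes, and a peak in the inactivated list alone at 1 member (2.56%), against 2.9%. These shares depended on peak strength. With −log10 q of 5 or more required, 14 of 39 members (35.9%) had a start site peak in control, against 35.5% of all genes. The inactivated list then held 14 (35.9%), against 46.5%, and 11 (28.2%) had one in both, against 34.1%. With 2 or more required, 30 members (76.9%) had one in control, against 60.6% of all genes. The inactivated list held 27 (69.2%), against 60.2%, and 25 (64.1%) had one in both, against 55.7%. The larger share of members was thus seen at a limit of 2 but not among the stronger peaks at 5.

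Members were placed by hand in a group called broadly expressed and a group called tissue-restricted, without the use of expression values. The 12 members of the broad group, Foxj2, Foxj3, Foxk1, Foxk2, Foxm1, Foxn2, Foxn3, Foxo1, Foxo3, Foxo4, Foxp1 and Foxp4, each had a start site peak in control and also in the inactivated list. Of the 27 members of the restricted group, 25 had one in control, 22 in the inactivated list and 21 in both. All 5 members that differed in presence and the member with none thus belonged to the restricted genes.

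Apart from Foxh1, the members with a peak in 1 list only had it in the lower part of that list. At Foxb2, a factor of the developing brain, the control peak chr19:16946768-16947978 stood at percentile 11.8. At Foxr2, the control peak chrX:149553606-149553844 was 239 bp wide and stood at percentile 33.1. At Foxn1, the factor of thymic and skin epithelium, the control peak chr11:78199388-78201362 lay over the start site at percentile 47.3, and in the inactivated list the nearest peak edge was 8469 bp away. At Foxs1, known from pericytes and the neural crest, the Taf4-inactivated peak chr2:152757344-152758741 stood at percentile 11.0, and the nearest control peak was 9793 bp away.

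Foxh1, a partner of SMAD proteins in Nodal signalling, was a case of distance rather than of presence. Its control peak chr15:76501105-76502278 stood at percentile 82.9, with its edge 727 bp from the start site. The inactivated list held the peak chr15:76501760-76502588, which shared 519 bp with it and stood at percentile 95.4, but with its edge at 1382 bp it was past the limit of 1 kb. That peak also lay within 1 kb of a start site of the neighbouring gene Ppp1r16a. Foxr1, a little-studied factor of the germ line and brain, was the only member with no start site peak in either list. It had no peak within 10 kb in control and 1 in the inactivated list, with its edge 4880 bp from the start site.

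**Figure D1:**
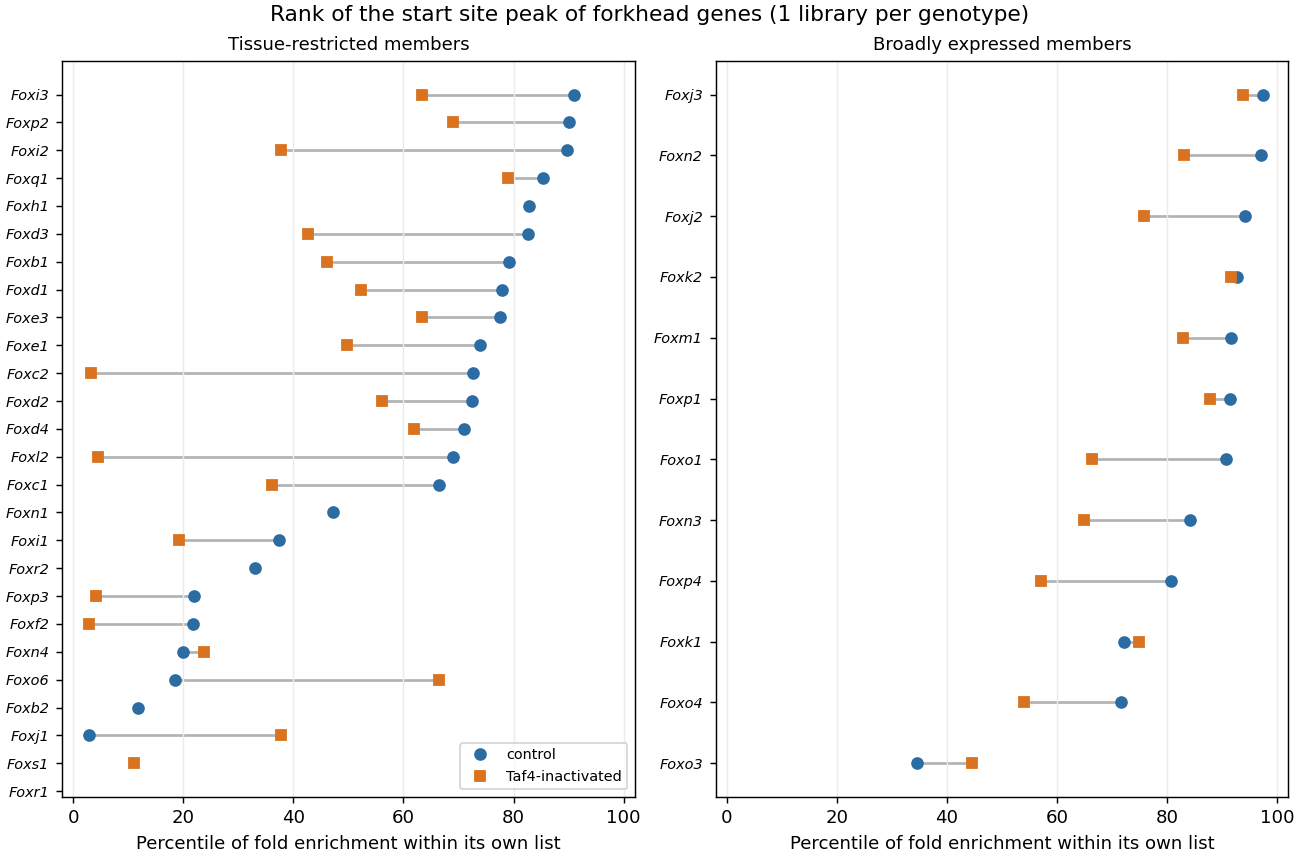
Percentile of fold enrichment of the start site peak of each of 38 forkhead genes within the control list and within the inactivated list (0 to 100, 1 library each), with control as circles, Taf4-inactivated as squares, and tissue-restricted genes on the left. Most lines run toward lower percentiles in the inactivated list, with Foxc2 (72.7 to 3.28) and Foxl2 (68.9 to 4.55) the longest, and with Foxo6 and Foxj1 the longest of the 5 that run the other way.

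The start site peaks of forkhead genes ranked lower in the inactivated list than in the control list. Over the 33 genes with a start site peak in both, the median difference in percentile, Taf4-inactivated minus control, was −18.2 points, with quartiles at −25.6 and −6.48. The median over all protein-coding genes with a peak in both lists was −2.77 points. The difference was negative at 28 of 33 members (84.8%) and at 65.9% of all genes. The median percentile of the members with a peak was 74.0 in control and 55.1 in the inactivated list, against 86.5 and 81.5 over all genes.

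A difference of at least 25 points was used as the call. It was met in the lower direction by 9 of 33 members (27.3%), where 9.07% of all genes met it. It was met in the higher direction by 2 members (6.06%), where 5.93% of all genes met it. Markers of other cell types could be compared only where each library gave a start site peak, which many did not. All such comparable markers except Col1a1 ranked lower in the inactivated list, where 65.9% of all genes did. Of the 4 mesenchymal markers with a start site peak in both lists, 2 were at least 25 points lower (Pdgfra at −41.0 and Des at −28.7), with a median of −25.7 points. Col1a2 differed by −22.7 points and Col1a1 by 7.36, in the other direction. The 1 endothelial marker in both lists, Kdr, differed by −57.1 points, the 1 immune marker, Itgam, by −29.9 and the 1 neuronal marker, Elavl4, by −12.7. Of 7 epithelial markers 0 passed 25 points and the median was 1.01, but Vil1 (−18.9), Epcam (−18.8) and Lgr5 (−16.9) were lower by about as much as the forkhead median. The part of other cell types, of depth and of peak strength in the ranks of the forkhead genes was not tested.

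The deposited fold itself was lower in the inactivated list at 3 members, Foxc2, Foxl2 and Foxi2. At the other 30 it was higher while the rank mostly was not. Folds of the 2 libraries are not on a common scale, and the share over all genes is not given here. This count is thus no result about the members.

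The choice of rank matters for these counts. With peaks ranked by −log10 p, the median difference was −15.2 points, with 11 members at least 25 points lower, against 9.61% of all genes, and 1 higher, against 2.79%. The sign was the same by fold and by −log10 p at 30 of 33 members. With ranks taken only among the start site peaks of protein-coding genes, an alternative added after the data were seen, the median was −8.76 points over the members and −0.692 over all genes. Under that ranking 7 members (21.2%) were at least 25 points lower, against 7.15% of all genes, and 0 were higher, against 8.58%. With peaks ranked by width the median was 0.484, so that the direction holds for peak strength and not for peak extent.

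Genes that start high in the control list have more room to lose rank, so members were also set beside all genes of the same control percentile. Between percentiles 50 and 75 of the control list, 4 of 9 members (44.4%) were at least 25 points lower, against 19.8% of all genes in that range. Between 75 and 90 the counts were 4 of 8 (50%) against 16.1%, and between 90 and 100 they were 1 of 9 (11.1%) against 2.83%. Of the 7 members below percentile 50, 5 stood at 25 or lower, where a drop of 25 points is not possible. Between 25 and 50, 0 of 2 members were that much lower, against 12.1% of all genes. In each of the upper 3 ranges the share was thus larger among the members than among all genes, with few members in each.

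**Figure D2:**
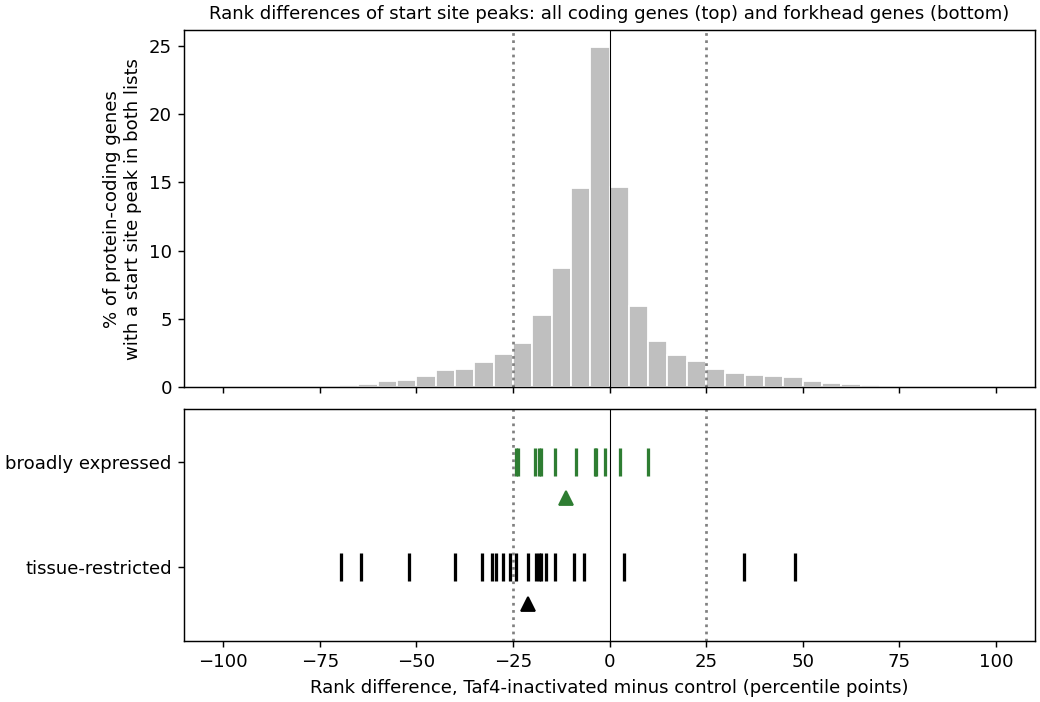
Distribution of the rank difference of start site peaks (Taf4-inactivated minus control, percentile points) over the 14022 protein-coding genes with a start site peak in both lists, with the 33 forkhead genes below as ticks, their group medians as triangles and the limits of 25 points dotted. The members lie mostly to the left of 0, with a median of −18.2 against −2.77 for all genes.

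The 9 members at least 25 points lower were all among the tissue-restricted genes, 9 of 21 (42.9%), against 9.07% of all genes. Most of the 9 act in embryonic patterning. Foxc2, required for lymphatic vessels and the axial skeleton, went from percentile 72.7 to 3.28, with deposited folds of 2.20 in control and 1.99 in the inactivated list. Its peaks were chr8:123640247-123641670 and chr8:123640701-123642019, both over the coding sequence of this single-exon gene. Foxl2, the factor of the ovary and the eyelid, went from 68.9 to 4.55, with folds of 2.16 and 2.01. These were the largest drops of the family, at −69.4 and −64.4 points.

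Foxi2 went from percentile 89.7 to 37.8, with folds of 2.56 and 2.32, but the compared peaks were of unequal extent. The control peak was 754 bp wide and the Taf4-inactivated peak 2850 bp, and 634 bp were shared. Control also held a separate peak of 1418 bp, of which 1384 bp lay under the same Taf4-inactivated peak. Within 5 kb of the start site, peaks covered 2172 bp in control and 2850 bp in the inactivated list. Foxi3, a related factor of ectodermal organs, went from 91.0 to 63.3 with peaks of 1279 and 989 bp.

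Foxd3, which keeps neural crest cells undifferentiated, went from 82.6 to 42.7, a difference of −40.0 points. Foxd1, a factor of the kidney stroma, went from 77.9 to 52.3. Foxb1, of the hypothalamus and spinal cord, went from 79.1 to 46.0. At these 3 genes the compared peaks overlapped, and the fold was higher in the inactivated list while the rank was lower.

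Foxc1, the close relative of Foxc2 in mesenchyme and eye, went from 66.4 to 36.0. By −log10 p its difference was −15.2 points, and that of Foxd1 was −23.8, so that 7 of the 9 passed by both measures. The members just past the limit were Foxd1 at −25.6 and Foxi3 at −27.7 points, and those just short of it were Foxo1 at −24.3, Foxe1 at −24.2 and Foxp4 at −23.7. The limit thus fell within a run of close values.

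Ranked by fold, neighbouring members gave unlike values on chromosome 13 and like ones on chromosome 4. On chromosome 13, Foxq1, Foxf2 and Foxc1 lie in a row with gaps of 64.8 and 175 kb. Foxq1, expressed in gut epithelium and stomach, kept a high rank at percentiles 85.4 and 78.9. Foxf2, a factor of the gut mesenchyme, was low in both lists at 21.8 and 2.86, and Foxc1 fell by 30.4 points. On chromosome 4, Foxd2 and Foxe3, 16.2 kb apart, differed by −16.3 and −14.2 points by fold and by −11.0 and −19.9 by −log10 p.

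Ranks at least 25 points higher in the inactivated list were found at 2 members. Foxo6, the FOXO factor of the brain, went from percentile 18.5 to 66.5, with folds of 1.88 and 2.72, but by −log10 p the difference was 5.42 points. Foxj1, the master factor of motile cilia, went from 2.82 to 37.7 and by 25.8 points by −log10 p. Its control peak was 2568 bp wide and its Taf4-inactivated peak 749 bp, so that the higher fold stood on a narrower region. The other members with a higher rank by fold were Foxo3 (9.91), Foxn4 (3.78), a factor of retina and spinal cord, and Foxk1 (2.78), a regulator of metabolism and autophagy. By −log10 p, Foxn4 stayed higher at 9.22, while Foxo3 (−1.48) and Foxk1 (−2.83) were lower.

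The broadly expressed members mostly ranked above the restricted ones. Their median was 91.0 in control and 75.4 in the inactivated list, against 72.5 and 43.3 for the restricted members. The median difference was −11.3 points over the 12 broad genes and −21.1 over the 21 restricted genes. At least 25 points lower were 0 of 12 broad genes, against 9.07% of all genes. The groups began at unlike heights in control. Of all genes between control percentiles 90 and 100, 2.83% were that much lower, and between 50 and 75, 19.8%. The contrast of broad and restricted genes was not tested at equal height, and it depended on the peaks that were ranked. Among start site peaks of protein-coding genes only, 3 of 12 broad genes (25%) and 4 of 21 restricted genes (19.0%) were at least 25 points lower. The 3 broad genes were Foxn2 (−32.6), Foxj2 (−30.1) and Foxo1 (−27.6), and the 4 restricted genes were Foxi2 (−42.4), Foxi3 (−31.7), Foxc2 (−27.0) and Foxd3 (−25.9).

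Foxj3, a factor of muscle and germ cells with wide expression, had the most enriched start site of the family in both lists, at percentiles 97.5 and 93.7 and folds of 3.18 and 4.01. Foxk2, which binds widely and acts in metabolism and autophagy, stood at 92.7 and 91.5. Foxp1, a repressor of lymphoid and epithelial programmes, stood at 91.4 and 87.8. These 3 genes differed by less than 4 points between the lists. Foxn2 and Foxj2 were as high in control, at 97.1 and 94.2, and stood at 83.1 and 75.8 in the inactivated list.

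Foxm1, the mitotic factor, stood at percentile 91.5 in control and 82.9 in the inactivated list. The start sites of 8 genes that it is known to drive, among them Plk1, Ccnb1, Aurkb and Cenpf, carried a peak in both lists. Their median difference was −1.08 points and 0 of 8 passed 25 points in either direction. Of all genes 9.07% were that much lower and 5.93% that much higher, so that with 8 genes this count is no result about them.

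The FOXO genes went separate ways in rank. Foxo1 stood at 90.6 and 66.3, and Foxo4 at 71.5 and 53.9, whereas Foxo3 stood at 34.6 and 44.5. The Foxo3 difference was 9.91 points by fold and −1.48 by −log10 p, so that it had no direction that both measures shared. Foxo3 had the longest start site peak of the family, 4247 bp in control and 3133 bp in the inactivated list. Of 18 genes of the insulin, AKT and FOXO pathway, all 18 had such a peak in either library, with a median difference of −5.73 points. The count at least 25 points lower was 2 (11.1%), against 9.07% of all genes, and 0 were higher, against 5.93%. Irs1, an adaptor of the insulin receptor, was among the 2, at −46.7. By −log10 p, 1 of the 18 was at least 25 points lower, against 9.61% of all genes. These counts are thus no result about the pathway.

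**Figure D3:**
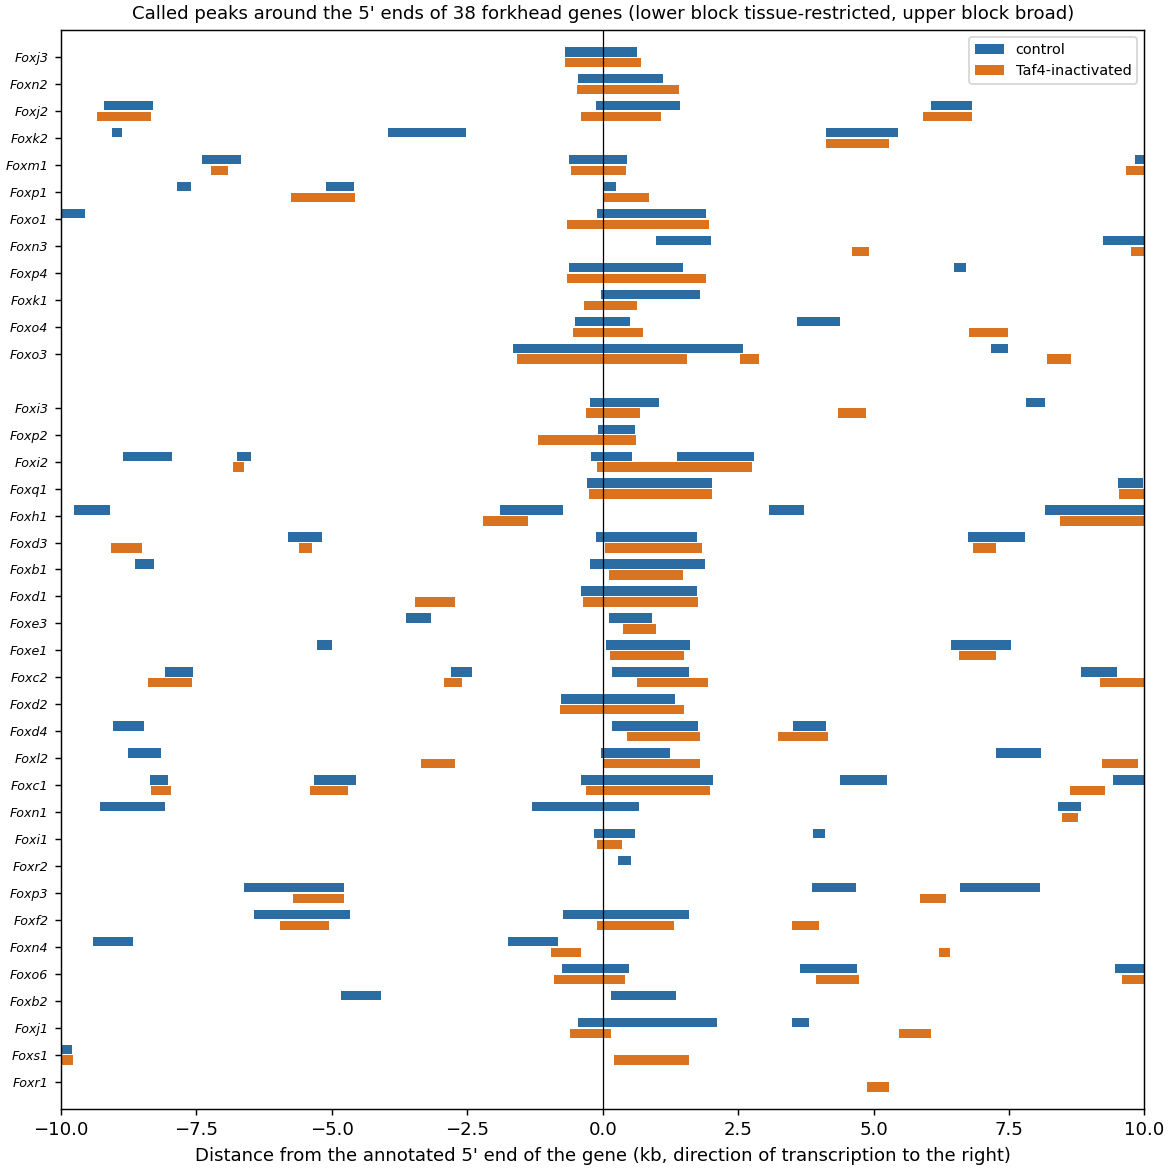
Peaks of both lists within 10 kb of the annotated 5′ end of 38 forkhead genes, drawn to scale as distance in the direction of the gene (kb), with control in blue and Taf4-inactivated in orange and with inner start sites not marked. The Foxi2 bars show control peaks of 754 and 1418 bp and the Taf4-inactivated peak of 2850 bp that overlaps both. The Foxh1 bars show the peak whose edge lies 1382 bp from the start site in the inactivated list.

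Start site peaks of forkhead genes were wide. Their median width was 1553 bp in control and 1404.5 bp in the inactivated list, against 1049 and 980 bp for all protein-coding genes. Within 5 kb of a start site, peaks covered a median of 1975 bp in control and 1652 bp in the inactivated list, against 1077 and 927 bp. The members with most covered DNA in control were Foxo3 (4247 bp), Foxp4 (3949 bp), Foxk2 (3550 bp), Foxc1 (3515 bp) and Foxm1 (3269 bp). In the inactivated list they were Foxo3 (3484 bp), Foxp1 (2995 bp), Foxp4 (2925 bp), Foxd1 (2879 bp) and Foxi2 (2850 bp). At Foxk2 the covered length was 1157 bp in the inactivated list, where 2 weaker control peaks at inner start sites and an upstream one of 1439 bp had no partner.

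The DNA around the annotated 5′ ends was rich in CpG. It was read in the 500 bases on each side of the 5′ end of each gene, and not under the compared peaks. The median ratio of observed to expected CpG was 0.734 over the members and 0.549 over all protein-coding genes. The median GC content was 63.5% and 54.7%. The ratio was 0.850 over the broad and 0.695 over the restricted members. A ratio of at least 0.6 was found at 27 of 39 members and at 45.6% of all genes. The members whose peak was in control alone were mostly poor in CpG, with 0.129 at Foxr2, 0.180 at Foxn1 and 0.293 at Foxh1, but Foxb2 had 0.667. This was not particular to them. Members with a peak in both lists had low ratios too, with 0.232 at Foxn3, 0.241 at Foxp3, 0.248 at Foxp1, 0.251 at Foxk2 and 0.292 at Foxi1. At Foxn3, Foxp3, Foxp1 and Foxk2 the compared peaks lay at inner start sites, outside the bases read here.

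In the restricted genes the peak often lay beside the start site, over the coding sequence. The start site itself was inside the peak at 16 of 25 restricted members (64%) in control and at 12 of 22 (54.5%) in the inactivated list, against 87.4% and 88.5% of all genes with a peak. It was inside at 12 of 12 broad members in both lists. The peak overlapped coding sequence at 80% of restricted members in control and 81.8% in the inactivated list, against 64.6% and 62.6% of all genes. Many of these genes have 1 short coding exon that begins close to the start site.

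Away from the start sites, the members held 134 other peaks in control and 116 in the inactivated list. In control 73 of 134 (54.5%, 95% exact binomial interval 45.7 to 63.1) had no partner, that is no overlapping peak in the inactivated list, against 60.5% of the other peaks of all protein-coding genes. In the inactivated list 53 of 116 (45.7%, 36.4 to 55.2) had no partner in control, against 47.9%. Both intervals, which cover counting error only, held the share of all genes. The order of the lists turned with the strength required. With −log10 q of 2 or more required, control held 56 such peaks and the inactivated list 70, and with 5 or more they held 10 and 27. At 2 the unpartnered share was 42.9% in control, against 53.5% over all genes, and 54.3% in the inactivated list, against 56.7%. At 5 it was 10% in control, against 16.8%, and 63.0% in the inactivated list, against 74%.

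These peaks lay mostly in introns, 62 in control and 64 in the inactivated list. The upstream flank held 27 and 16, the downstream flank 32 and 25, coding exons 11 and 8, and untranslated exons 2 and 3. Other genes' start sites lay within 1 kb of 17 of them in control and 15 in the inactivated list. They were weaker than start site peaks, with a median percentile of 39.2 in control and 37.2 in the inactivated list. Peaks of the restricted members were the weakest, at 26.9 and 21.0, against 47.7 and 49.2 for the broad members.

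A few long genes held much of the total. The 5 members with most other peaks held 58 of 134 in control and 56 of 116 in the inactivated list. Foxn3, a repressor linked to liver metabolism and the cell cycle, had 21 in control and 14 in the inactivated list, of which 7 in each had a partner. Foxp1 went against the totals, with 11 in control and 19 in the inactivated list, again with 7 partnered in each. Foxo3 had 13 and 7, with 4 and 5 partnered. Foxk1 had 7 and 6, and Foxn1 and Foxp4 had 6 and 8 each.

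Foxn1 thus had no start site peak in the inactivated list but kept peaks inside the gene. Of its other peaks 4 of 6 in control and 5 of 8 in the inactivated list had a partner. At Foxl2 all 3 other peaks of control and at Foxo1 all 4 had no partner. Members with no other peak numbered 1 in control and 6 in the inactivated list. The same share over all genes is not given here. Other peaks of all protein-coding genes were also fewer in the inactivated list, at 34687 against 45397.

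**Figure D4:**
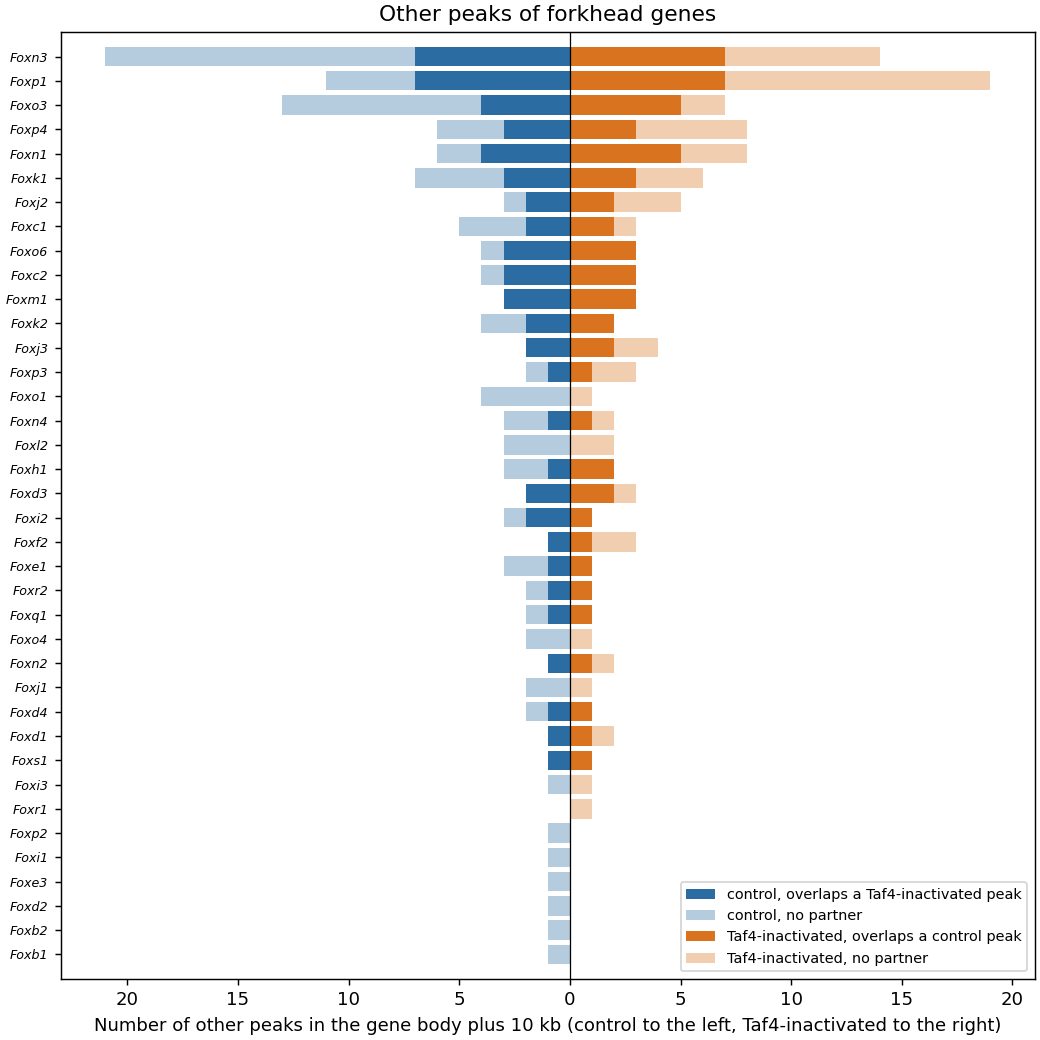
Number of other peaks, in the gene body or within 10 kb and away from the start sites, for 38 forkhead genes in the control and inactivated lists, with control to the left, Taf4-inactivated to the right and peaks without a partner in the paler shade. Foxn3 leads in control with 21 and Foxp1 in the inactivated list with 19.

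The strongest other peak lay 8760 bp upstream of Foxj2, at chr6:122760721-122761624 in control and chr6:122760599-122761598 in the inactivated list. Its percentiles were 99.5 and 98.5, above those of the Foxj2 start site itself. An intronic Foxp1 peak at chr6:98899933-98900285 in control and chr6:98899908-98900302 in the inactivated list stood at 96.5 and 97.4. An intronic Foxo3 peak stood at 87.4 in control and, as chr10:41922334-41923114, at 94.3 in the inactivated list. These 3 sites were thus strong in both libraries.

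Among peaks of the inactivated list without a partner, the strongest were intronic and lay in broad members. They were chr4:119262047-119262485 in Foxj3 at percentile 91.5, chr17:88853685-88854010 in Foxn2 at 89.5 and chr6:98997114-98997512 in Foxp1 at 88.6. At Foxc2 the upstream peak chr8:123631985-123632501 at percentile 81.8 in control had the partner chr8:123631686-123632497 at 87.0 in the inactivated list. This peak also lay within 1 kb of a start site of the neighbouring gene Mthfsd.

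The letters TGTTTAC, searched on both strands, are a core that many forkhead factors bind. They were in 4 of 134 other peaks of members in control (2.99%, 0.819 to 7.47), against 7.02% of the other peaks of all protein-coding genes, and in 8 of 116 in the inactivated list (6.90%, 3.02 to 13.1), against 7.44%. Start site peaks held them in 5 of 43 (11.6%, 3.89 to 25.1) in control and 5 of 35 (14.3%, 4.81 to 30.3) in the inactivated list, against 7.43% and 7.46%. The interval held the share of all genes in each of the 4 cases.

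In other peaks there were 9 positions with these letters, 3 in peaks of both lists (Foxj2, Foxj3 and Foxk1), 1 in control alone (Foxn3) and 5 in the inactivated list alone (Foxn1, Foxn2 and 3 in Foxp1). They are shown for 2 positions in peaks of both lists and 2 of the Foxp1 positions, with 50 bases on each side and the 7 letters in capitals, from the mm9 genome and on the strand on which they read TGTTTAC. The Foxj2 window is chr6:122760687-122760793 (minus strand) in the strong upstream peak, and the Foxk1 window is the intronic chr5:142916459-142916565 (plus strand). The Foxp1 windows are the intronic chr6:98961997-98962103 (plus strand, Foxp1 intron a) and chr6:99123847-99123953 (minus strand, Foxp1 intron b).
Foxj2: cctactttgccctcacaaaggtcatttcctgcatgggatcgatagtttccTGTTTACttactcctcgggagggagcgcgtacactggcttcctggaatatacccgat
Foxk1: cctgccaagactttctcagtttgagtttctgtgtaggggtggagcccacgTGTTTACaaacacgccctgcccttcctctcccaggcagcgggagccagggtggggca
Foxp1 intron a: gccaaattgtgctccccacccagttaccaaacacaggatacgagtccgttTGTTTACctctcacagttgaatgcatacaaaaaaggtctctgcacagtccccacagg
Foxp1 intron b: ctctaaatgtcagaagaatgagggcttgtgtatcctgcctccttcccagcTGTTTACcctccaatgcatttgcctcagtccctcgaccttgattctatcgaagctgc
The Foxk1 peak stood at percentile 76.7 in control and 50.9 in the inactivated list. The Foxp1 peaks stood at 69.9 and 30.5 in the inactivated list. A match of letters is a description of the DNA and shows no binding.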

How the data were processed

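The 2 ATAC-seq libraries of enteroids, control and Taf4-inactivated, entered as peak lists and were grouped by the labels. Per the submitters' processing notes, the tools were bcl2fastq 2.17.1.14, Bowtie 1.0.0 and MACS2 2.1.1 with build mm9, and broad peaks were called in each library on its own. The treatment of duplicate and mitochondrial reads was not given in the sources used here. The deposited fold is a ratio over the background of the same library. The authors' −log10 p-value and −log10 q-value columns are averages over a peak, and the deposited score is a rounded form of the −log10 q. A deeper library gives more peaks, so presence depends on depth.

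Positions were made 1-based, all peak ends lay within the NCBIM37 (mm9) genome, and genes were taken from GENCODE for the same build. Where a gene had several start site peaks, that of highest fold stood for it. A partner overlapped by at least 1 bp. Relative depth came from the background level that fits fold and p of each peak. Intervals are exact (Clopper-Pearson, 95%). Python 3.11.15, numpy 2.4.6, scipy 1.17.1, pysam 0.24.0 and matplotlib 3.10.9 were used, and the steps were tested on simulated data. No p-value was computed.

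The members, lists and limits were chosen with earlier results of these data known. Genes were named for a start site peak in 1 list only, the 5 largest rank differences in each direction, a difference of at least 25 points, the 5 largest covered lengths or counts of other peaks, other peaks all without a partner where there were at least 3, or no peak. Genes of the broad, FOXO and FOXM1 groups were named as examples. Single peaks away from start sites, neighbouring genes and the CpG values given by gene were chosen after their values were seen. Alternatives changed the −log10 q, the list length, the distances, the overlap, the ranked value, the peaks ranked and the genes counted as members. Values of 1 member, which is counted but neither named nor drawn by name, and of some other items are not reported here.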

Additional observations from a re-analysis of the deposited data

How the results depend on the processing

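Of 125 values under alternative settings, 59 stayed within their limit and 66 did not, and 13 rank differences changed sign. With a −log10 q of at least 5, members with a start site peak fell to 14 in control, 14 in the inactivated list and 11 in both. With the 50000 peaks of highest −log10 p in each list, added after the data were seen, 8 members had a peak in 1 list only. Other peaks in control numbered 56 at a −log10 q of at least 2, 10 at 5, 75 without flanks and 369 with 50 kb flanks, and in the inactivated list 70, 27, 75 and 293. The control share without a partner was 42.9% at a −log10 q of 2, 10% at 5, 70.9% with 50% overlap and 30.4% where peaks at 2 or more could pair with any peak, which was added after the data were seen. The Taf4-inactivated share was 63.0% at 5, 66.4% with 50% overlap and 35.7% in that added search. The median rank difference was −15.2 by −log10 p, −8.76 among start site peaks (added) and 0.484 by width. At least 25 points lower were 2 members by width, and at least 25 points higher were 1 by −log10 p and 0 among start site peaks, all added after the data were seen. Signs of single members were followed only at the 14 with the 5 largest differences in each direction or at least 25 points. Among these, the sign changed by width at Foxc1 (0.213), Foxc2 (0.716), Foxd1 (0.774), Foxd3 (0.939), Foxi2 (37.6), Foxj1 (−33.2), Foxk1 (−16.2), Foxl2 (11.2), Foxn4 (−19.2) and Foxo3 (−0.092). By −log10 p it changed at Foxk1 (−2.83) and Foxo3 (−1.48). Members outside the 14 changed sign too, such as Foxp2 by width (39.0) and Foxk2 by −log10 p (1.42). The cause was not tested. No paired analysis was possible because each genotype had 1 library, and for that reason no library could be left out. Peak lists without read counts give no depth per site, and a missing peak is not closed DNA.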

Other observations

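Forkhead genes outside the rule were also read. Foxa1 and Foxa3, which act in gut epithelium, had start site peaks at percentiles 69.0 and 84.6 in control and 57.0 and 72.9 in the Taf4-inactivated list, and Foxa2 stood at 53.9 and 23.5. Foxf1a, the mesenchymal neighbour of Foxc2 on chromosome 8, stood at 51.2 and 11.4, a difference of −39.8 points. Foxl1, annotated as a pseudogene in the mm9 annotation used, had a start site peak in control alone, at percentile 18.7.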
